A study of Mus musculus with 576 samples.

Results

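The genes described here encode fibrillins, elastin, fibulins and their matrix partners: Fbn1, Fbn2, Eln, Fbln1, Fbln2, Fbln5, Efemp1, Emilin1, Ltbp1 and Fn1. They were taken by symbol, 10 of the 36658 genes in the count tables, and all 10 had counts in each of the 3 mouse lines. Their level and detection were compared between epithelial, mesothelial and mesenchymal cells and between lines.

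The cells came from the dorsal pancreas at embryonic day 12.5, were sorted as GFP+ and were sequenced as 1 Smart-seq2 library each. The Nkx2.5 line (Nkx2.5-Cre;mTmG) and the Nkx3.2 line (Nkx3.2-Cre;mTmG) carry a Cre under the named driver and the mTmG reporter, so GFP records a history of driver activity. The Prox1 line (Prox1-GFP) carries a GFP reporter of Prox1. The labels give no treatment, and no group without a reporter was analysed here. Each line filled 2 plates of 96 wells, of which 90 and 83 (6A and 6B, Nkx2.5 line), 95 and 96 (7A and 7B, Nkx3.2 line) and 93 and 92 (8A and 8B, Prox1 line) passed the filters. The median depth per cell by line was 1056674, 896115 and 808006 counts. Since no label ties a cell to an animal or litter, a line counted as 1 sample, cells were not replicates and no test was made. The plates of a line show its spread, which may be technical.

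Elastic fibres have a core of elastin (Eln) on a scaffold of microfibrils, which are built mainly from the large glycoproteins fibrillin-1 (Fbn1) and fibrillin-2 (Fbn2). Fibulins (Fbln1, Fbln2, Fbln5, and Efemp1, which encodes fibulin-3) and Emilin1 lie at the interface of elastin, microfibrils and cells, and Fbln5 is needed for elastin to assemble on them. Ltbp1 tethers latent TGF-beta to this matrix, and fibronectin (Fn1) forms an early scaffold on which fibrillin and Ltbp1 are laid down.

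In GENCODE M21, on GRCm38, Fbn1 lies at chr2:125300594-125507993 (minus strand), Eln at chr5:134702593-134747323 (minus), Fbln1 at chr15:85205949-85286535 (plus) and Fbln2 at chr6:91212455-91272540 (plus). Fbln5 lies at chr12:101746565-101819055 (minus), Efemp1 at chr11:28853204-28926743 (plus) and Emilin1 at chr5:30913402-30921277 (plus). Ltbp1 lies at chr17:75005568-75392512 (plus) and Fn1 at chr1:71585520-71653200 (minus). Counts were summed over all transcripts of a gene. The RefSeq promoter table (GRCm38.p6) held 10 start sites of 7 of these genes. The 250 bases before a start site are printed for 3 genes whose levels split in different ways below, Fbln1 (in epithelium and mesenchyme), Fbln5 (higher in 1 line) and Ltbp1 (uneven among mesenchymal clusters), using the start sites whose window lies wholly outside the GENCODE gene. Capitals mark CCAAT on either strand (ATTGG when read on the other).

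Fbln1, chr15:85205699-85205948, plus strand: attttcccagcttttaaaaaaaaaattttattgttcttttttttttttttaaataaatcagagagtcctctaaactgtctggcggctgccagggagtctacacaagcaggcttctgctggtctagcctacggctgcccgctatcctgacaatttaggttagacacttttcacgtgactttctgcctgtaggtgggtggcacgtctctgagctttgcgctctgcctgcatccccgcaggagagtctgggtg

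Fbln5, chr12:101819120-101819369, minus strand: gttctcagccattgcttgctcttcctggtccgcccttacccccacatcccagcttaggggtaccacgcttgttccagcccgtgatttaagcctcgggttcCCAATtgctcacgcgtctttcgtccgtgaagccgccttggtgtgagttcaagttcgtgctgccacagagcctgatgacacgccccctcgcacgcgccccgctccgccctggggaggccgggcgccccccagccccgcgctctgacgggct

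Ltbp1, chr17:75005279-75005528, plus strand: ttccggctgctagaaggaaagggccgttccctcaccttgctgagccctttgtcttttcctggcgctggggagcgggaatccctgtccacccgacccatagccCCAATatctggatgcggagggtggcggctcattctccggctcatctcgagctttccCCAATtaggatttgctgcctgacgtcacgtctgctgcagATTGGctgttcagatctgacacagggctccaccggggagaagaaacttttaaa

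CCAAT was present 3 times before Ltbp1, once before Fbln5 and not before Fbln1, and 33.8% of 32851 promoter windows of this length held it. Over the 10 windows, GGGCGG (either strand, no overlap with CCAAT) was found in 5, against 32.7% of all windows, and TATAAA in none, against 12.4%. These are matches of letters and were not tested as binding sites.

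The cells fell into 10 clusters, with the 10 genes and the related list below left out of the clustering. Compartments were set by the marker list with the highest median level. Cluster 0 was epithelial (89 cells, all of the Prox1 line, with Cldn6 and Spp1 among its leading genes), cluster 9 endocrine-like (19 cells, also of the Prox1 line, led by Gcg with Chga and Chgb), and cluster 7 mesothelial-like (23 Nkx3.2 and 5 Nkx2.5 cells, with Upk3b, Upk1b, Podxl, Lrrn4 and Muc16). The other 7 clusters were mesenchymal, with 87 and 81 cells on plates 6A and 6B, 92 and 76 on 7A and 7B, and 33 and 44 on 8A and 8B. Of these, cluster 2 was led by the erythroid gene Hba-a2, with 63.5 CPM summed over 7 erythroid markers. Defining markers followed these names: Epcam was at 836 CPM (summed counts scaled to a common total) in epithelium and 0.684 CPM or less in mesenchyme of both Cre lines (3.12 CPM in that of the Prox1 line), and Pdgfra was at 167.8 to 211 CPM in mesenchyme and 0.120 CPM in epithelium. Prox1 itself was at 1543 CPM in epithelium, 188.6 CPM in mesenchyme of the Prox1 line and under 1 CPM in mesenchyme of the other lines (0.601 and 0.777 CPM). No doublet caller was run. A single cell of the epithelial cluster, on plate 8A, held 18188 CPM of the 7 immune markers and 1.79 CPM of the 13 epithelial markers, against medians of 0 and 5694 CPM in the other cells of the cluster.

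Summed levels of the fibrillins, Fbln2, Fbln5, Emilin1 and Ltbp1 were at least 2-fold higher in mesenchyme than in epithelium, and those of Fbln1 and Fn1 were not. In the Prox1 line, the only line with both compartments, the epithelium held few fibrillin, Fbln2, Fbln5, Emilin1 and Ltbp1 counts, whereas Fbln1 and Fn1 were abundant in both. By the rule of at least 2-fold on both plates, 6 of the 10 genes were higher in mesenchyme and 0 lower, where 8.80% of 20716 genes were called higher and 10.7% lower.

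Fbn1, the main fibrillin of postnatal microfibrils, was at 87.9 CPM (plate 8A) and 84.4 CPM (8B) in mesenchyme and at 2.67 and 0.833 CPM in epithelium, 47.3-fold apart over both plates. Fbn2 (chromosome 18), the fibrillin prominent in embryonic tissue, was at 234 and 168.5 CPM in mesenchyme and at 3.98 and 1.42 CPM in epithelium, 69.8-fold apart. Emilin1, which binds elastin and the cell surface, was at 488 and 354 CPM in mesenchyme and at 4.84 and 5.73 CPM in epithelium, 77.6-fold apart. For these genes every plate of mesenchyme stood above every plate of epithelium. The single cell with immune markers held 157.2 CPM of Emilin1, which was 22.3% of all Emilin1 counts of the epithelial cluster, and without it the epithelial level was 4.11 CPM.

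Fbln2, a fibulin that binds fibrillin and fibronectin, was at 98.9 and 83.6 CPM in mesenchyme and at 1.30 and 3.30 CPM in epithelium, 40.3-fold apart. Ltbp1 was at 124.9 and 49.4 CPM in mesenchyme and at 7.81 and 4.85 CPM in epithelium, 12.4-fold apart. Its mesenchymal counts were uneven, with the median mesenchymal cell at 3.21 CPM. The 9 mesenchymal cells of cluster 3 on 8B were at 0.794 CPM, below the epithelium of that plate. Fbln5 was at 14.3 and 4.46 CPM in mesenchyme and had no count in any of 89 epithelial cells, with an exact upper bound of 4.06% of cells, and it was at least 211-fold higher against a floor of 3 counts over the group. Fbln5 was carried by 9 of 77 mesenchymal cells and fell under a minimum of 20 CPM, with which 5 of the genes were called and 9.67% of 9065 genes.

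For Fbn1 and Fbln2 the few epithelial counts came from few cells. Fbn1 was found in 3 of 89 epithelial cells (3.37%, 95% exact binomial interval 0.701 to 9.54) and Fbln2 also in 3, against 62.3% and 53.2% of the mesenchymal cells of the same line. At least 1 count was found in 17.98% of epithelial cells for Fbn2, 26.97% for Emilin1 and 42.7% for Ltbp1, and at least 5 counts in 6.74%, 7.87% and 15.7%. The 13 mesenchymal markers, which epithelium should mostly lack, had a median share of 10.1% of epithelial cells at 1 count and 1.12% at 5 counts, at median depths of 833933 counts in epithelial cells and 796126 in mesenchymal cells.

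Fbln1, a basement membrane and fibronectin-binding fibulin, was at 150 and 203 CPM in epithelium and at 289 and 268 CPM in mesenchyme, 1.58-fold apart. It was found in 84.3% of epithelial and 88.3% of mesenchymal cells of the Prox1 line. Fn1 ran the other way, at 138.9 and 177.8 CPM in epithelium and 110.8 and 109.7 CPM in mesenchyme, a 1.43-fold difference, with a count in 85.4% and 66.2% of cells. For both genes the plates of the compartments did not overlap, but the difference stayed under 2-fold. The median epithelial cell held 145.9 CPM of Fbln1 and 111.5 CPM of Fn1.

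Eln and Efemp1 were low in both compartments. Eln was at 3.02 and 6.92 CPM in epithelium and 2.77 and 4.44 CPM in mesenchyme, and these overlap. Efemp1 was at 11.01 and 8.21 CPM in epithelium, in 12 of 89 cells (13.5%), and at 13.1 and 0.341 CPM in mesenchyme, in 3 of 77 cells, so its plates also overlap.

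**Figure D1:**
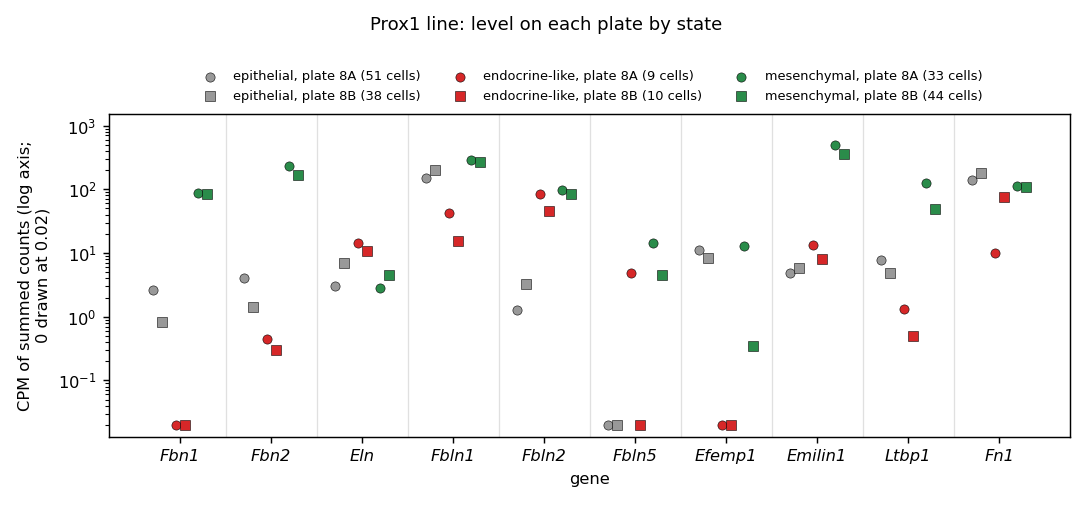
Level of the 10 genes on plates 8A (circles) and 8B (squares) of the Prox1 line in epithelial (grey), endocrine-like (red) and mesenchymal (green) cells, as CPM of summed counts on a log axis with 0 drawn at 0.02. The green points of Fbn1, Fbn2, Fbln2, Emilin1 and Ltbp1 stand more than 10-fold above the grey ones of the same plate, while those of Fbln1 and Fn1 lie within 2-fold of them.

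Other genes of elastic fibre assembly, crosslinking and fibronectin binding formed a list of 46 genes in the tables, of which 25 reached 20 CPM in either compartment. Of these, 18 were higher in mesenchyme and 2 lower, beside 9.67% higher and 10.3% lower of 9065 genes at that level. The median log2 ratio of the 25 genes was 3.24, beside 0.01 over those 9065 genes and 5.33 over the 7 described genes at that level. The genes with the largest ratios were Itga8, an integrin subunit (109.97 CPM in mesenchyme, 0.0800 CPM in epithelium), and Tgfb2, the TGF-beta-2 ligand that Ltbp proteins bind (121.997 and 0.107 CPM). In the other direction were Vtn, which encodes vitronectin (0.0170 CPM in mesenchyme, 398 CPM in epithelium), and the crosslinking enzyme gene Tgm2 (no count in mesenchyme, 97.01 CPM in epithelium).

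Endocrine-like cells held Fbln2, and less Fbln1 and Fn1 than the other epithelium. Between the 19 endocrine-like and 89 other epithelial cells, 1 gene was higher by at least 2-fold on both plates and 6 were lower, beside 25.3% of 20293 genes called either way. Fbln2 was at 84.8 CPM (8A) and 45.3 CPM (8B) in endocrine-like cells and 27.9-fold lower in the rest. At least 5 counts of Fbln2 were found in 7 of the 19 cells, and the 2 highest cells held 58.2% of its counts. Fbln1 was at 42.5 and 15.4 CPM, 6.49-fold below the other epithelium, and Fn1 at 10.1 and 75.3 CPM, 3.30-fold below it. The plates of Fn1 were far apart, and the ratio to the other epithelium ran from 2.36-fold to 13.7-fold lower.

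Fbn1 and Efemp1 had no count in endocrine-like cells, with an exact upper bound of 17.6% of cells for each. The lower calls of Fbn1, Fbn2, Efemp1 and Ltbp1 set these zeros and levels of 0.856 CPM or less against epithelial levels of 1.81 to 9.71 CPM. With a minimum of 20 CPM only Fbln2, Fbln1 and Fn1 were called, beside 28.7% of 9268 genes. Eln was at 14.4 and 10.7 CPM, 1.55-fold to 4.77-fold above the other epithelium. When each cell was given its compartment from its own markers without clustering, which moved 9 of 549 cells between compartments, Fbln2 and Fbn1 lost their calls and Eln gained one. Of the related list, 13 genes reached 20 CPM, with 2 higher and 4 lower and a median log2 ratio of -0.45, beside -0.14 over all genes at that level. Tgfb2 was at 55.4 CPM and the integrin gene Itga4 at 33.4 CPM in endocrine-like cells (0.107 and 3.40 CPM in the rest), and Tgm2 (0 against 97.01 CPM) and Vtn (2.60 against 398 CPM) had the largest ratios the other way.

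**Figure D2:**
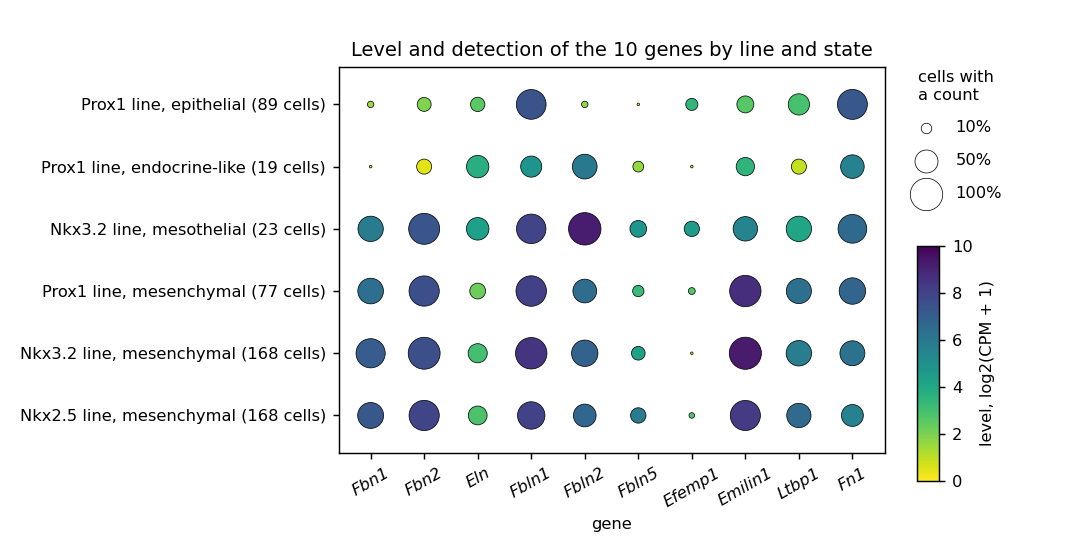
Level and detection of the 10 genes in each line and state with at least 10 cells. Dot area grows with the share of cells with a count, and colour gives log2(CPM + 1) of the summed counts. Fbn1, Fbn2 and Emilin1 have large dark dots in the mesenchyme of all 3 lines and small pale ones in epithelium, Fbln1 and Fn1 are dark in both, and Fbln2 is darkest in mesothelial cells (591 CPM).

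In the Nkx3.2 line the mesothelium, the surface layer of the organ, shared Fbn2 and Fbln1 with the mesenchyme, held more Fbln2 and far less Emilin1. Only the Nkx3.2 line had at least 10 mesothelial cells, 3 of them on plate 7A and 20 on 7B, so the comparison is pooled over plates and rests mainly on 1 plate. Of the 10 genes, 3 were at least 2-fold higher (Eln, Fbln2, Efemp1) and 3 lower (Fbn1, Emilin1, Ltbp1) than in the mesenchymal cells of this line. Over all genes 40.7% of 20911 were called either way, so that 6 of 10 is read against a high background. With a minimum of 20 CPM, 5 of the genes were called, beside 21.1% of 8865 genes.

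Fbln2 was at 522 CPM (7A) and 606 CPM (7B) in mesothelial cells and at 117.1 and 116.9 CPM in mesenchyme, 5.05-fold apart over the line. It was detected in 23 of 23 mesothelial cells (95% exact binomial interval 85.2 to 100), with quartiles of 305, 464 and 878 CPM, against 66.1% of mesenchymal cells with a median of 88.2 CPM. In the 5 mesothelial cells of the Nkx2.5 line it was at 176.7 CPM, 4 of the 5 having a count, against 106.4 CPM in mesenchyme of that line. The plates of that line went in opposite directions, at 97.1 against 129.9 CPM on 6A (3 mesothelial cells) and 274.7 against 81.1 CPM on 6B (2 cells). Efemp1 was in 5 of the 23 cells (21.7%, interval 7.46 to 43.7) at 21.9 CPM. It was in none of the mesenchymal cells of the Nkx3.2 line, with an exact upper bound of 2.17% of cells. It was also in 2 of the 5 mesothelial cells of the Nkx2.5 line. Eln was at 0 CPM in the 3 cells of plate 7A and 24.1 CPM in the 20 cells of 7B, so its difference of 2.82-fold comes from 1 plate.

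Emilin1 was at 54.2 and 42.3 CPM in mesothelial cells and at 565 and 712 CPM in mesenchyme, 13.996-fold lower. Fbn1 was at 91.5 and 48.5 CPM, 2.43-fold lower, and Ltbp1 at 8.53 and 17.9 CPM, 3.36-fold lower. Fbn1 lost its call without cells holding other lineages' markers, against mesenchymal clusters 1 to 3 only and at 3-fold. Fbn2 stayed at 162.9 CPM, against 193.3 CPM in mesenchyme, and Fbln1 at 255 CPM, against 354 CPM. In the 5 mesothelial cells of the Nkx2.5 line Fbln1 was at 60.9 CPM, against 257 CPM in mesenchyme of that line. Fn1 in the Nkx3.2 line was at 242.7 and 66.4 CPM in mesothelial cells and at 70.7 and 78.1 CPM in mesenchyme, so its plates went in opposite directions. Pooling both Cre lines left the same 6 genes called, with Fbln2 at 4.53-fold and Efemp1 at 10.3-fold higher and Emilin1 11.1-fold lower, beside 43.1% of 22280 genes. In the Nkx3.2 line alone, 26 genes of the related list reached 20 CPM, with 7 higher and 10 lower, beside 21.1% of 8865 genes called either way. The median log2 ratio of the 26 genes was -0.56, beside 0.01 over those 8865 genes. Tgm2 (474 CPM, no count in mesenchyme) and Thsd4, which encodes a fibrillin-binding ADAMTS-like protein (67.1 against 6.22 CPM), had the largest ratios, and Itga8 (0.0522 against 121.5 CPM) and Bgn, which encodes the proteoglycan biglycan (1.88 against 200.3 CPM), the smallest.

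Within the mesenchyme, levels are compared between genes only per length, as CPM per kilobase of the longest GENCODE transcript. On that scale Emilin1 came first (78.9 in the Nkx2.5, 161.7 in the Nkx3.2 and 105.9 in the Prox1 line), followed by Fbln1 (70.3, 96.8 and 75.6). Fbln2 (22.2, 24.4 and 18.8) and Fbn2 (22.3, 17.5 and 17.7) came next, and their order differed between lines. Fbn1 (13.1, 11.4 and 7.17) and Ltbp1 (14.03, 8.14 and 11.97) followed in the Nkx2.5 line. Fn1 was at 5.78, 8.85 and 13.2, above Ltbp1 in the Nkx3.2 line and above Fbn1 and Ltbp1 in the Prox1 line. Fbln5 was at 10.02, 3.13 and 1.45. Eln stayed at 0.977 to 1.81 and Efemp1 at 2.70 or less. Fbn2 exceeded Fbn1 on each of the 6 plates, by 1.43-fold to 2.89-fold per kilobase. Counts of both fibrillins were found in 57.1% (Nkx2.5), 79.2% (Nkx3.2) and 55.8% (Prox1) of mesenchymal cells. Fbn1 was found without Fbn2 in only 11, 3 and 5 cells, and Fbn2 without Fbn1 in 50, 30 and 24.

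Between the 2 Cre lines, Fbln5 was higher in Nkx2.5 mesenchyme and Emilin1 was near 2-fold lower. By the rule of 2-fold in each of the 4 pairs of plates, 2 of the 10 genes were called (Fbln5 and Efemp1, both higher in the Nkx2.5 line), beside 6.47% of 21616 genes. The makeup of the lines differed, with 31 Nkx2.5 cells and 1 Nkx3.2 cell in cluster 6 and 1 and 34 in cluster 5, so values within shared clusters are given below.

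Fbln5 was at 65.4 CPM (6A) and 50.9 CPM (6B) in the Nkx2.5 line and at 23.65 and 9.76 CPM (7A and 7B) in the Nkx3.2 line, 3.21-fold apart and between 2.15-fold and 6.70-fold over pairs of plates. The share of cells with a count was 22.02% (interval 16.01 to 29.1) against 17.3% (11.9 to 23.8), intervals that cover counting error only. Among cells with a count the median was 232 CPM against 89.5 CPM. Within single clusters shared by both lines Fbln5 was 2.51-fold (cluster 1), 1.74-fold (cluster 2), 4.06-fold (cluster 3) and 4.39-fold (cluster 4) higher in the Nkx2.5 line. These ratios rest on few cells, since at most 7 cells of such a cluster had a count on a plate. In cluster 2 these were 4 of 17 cells on 6A, 2 of 21 on 6B, 3 of 17 on 7A and 0 of 10 on 7B. It lost its call when cells with a count in at least 3 erythroid, endothelial or immune markers were left out. The summed level of 7 erythroid markers was 3.02 and 4.36 CPM on plates 6A and 6B and 65.5 and 21.2 CPM on 7A and 7B, and its part in the result was not tested.

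In mesenchyme, Efemp1 was at 2.46 and 8.77 CPM in the Nkx2.5 line and had no count in the Nkx3.2 line. All its counts in Nkx2.5 mesenchyme came from 4 cells (2.38%, interval 0.652 to 5.98). For no mesenchymal cell in the Nkx3.2 line the interval was 0 to 2.17, and the difference between the lines was not tested.

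Emilin1 was at 333 and 273 CPM for Nkx2.5-Cre and at 565 and 712 CPM in the Nkx3.2 line, 2.05-fold higher in the latter, with pairs of plates between 1.70-fold and 2.61-fold, so it missed the rule. All 4 clusters shared by these lines showed the direction, at 0.54, 0.63, 0.41 and 0.39 of the Nkx3.2 level in clusters 1 to 4. It was in 98.2% of Nkx3.2 cells and 86.3% of Nkx2.5 cells. Ltbp1 was higher in the Nkx2.5 line on all 4 pairs of plates (1.51-fold to 1.97-fold) and Fbln1 lower (1.37-fold to 1.38-fold), both under 2-fold. Fn1 was also lower on all pairs (1.09-fold to 2.43-fold) and Fbn2 higher (1.09-fold to 1.43-fold). Fbn1 (156.5 and 136.9 CPM over the lines) and Fbln2 (106.4 and 116.98 CPM) had overlapping plates, as had Eln. Within the 4 shared clusters none of these 4 directions held throughout: from cluster 1 to 4, Ltbp1 was at 0.55, 0.99, 3.80 and 0.34 of the Nkx3.2 level and Fn1 at 2.07, 0.19, 1.55 and 0.20, while Fbln1 turned in cluster 4 (1.176) and Fbn2 in cluster 2 (0.92). Fbn1 was higher for Nkx2.5-Cre in each of them (1.66-fold, 2.37-fold, 1.30-fold and 1.56-fold).

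Shares of cells with a count ran lower in the Nkx2.5 line for most genes whatever their level. Fbn1 was in 63.7% of Nkx2.5 and 80.95% of Nkx3.2 cells although its level was 1.14-fold higher in the former, and Fbn2 in 86.9% and 97.02% although it was 1.28-fold higher. Mesenchymal cells of the Nkx2.5 line had more counts (median 1054465 against 897271) and fewer genes (median 5745.5 against 7221), and the part of this in the shares was not tested. No order was read from shares that go against the levels.

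**Figure D3:**
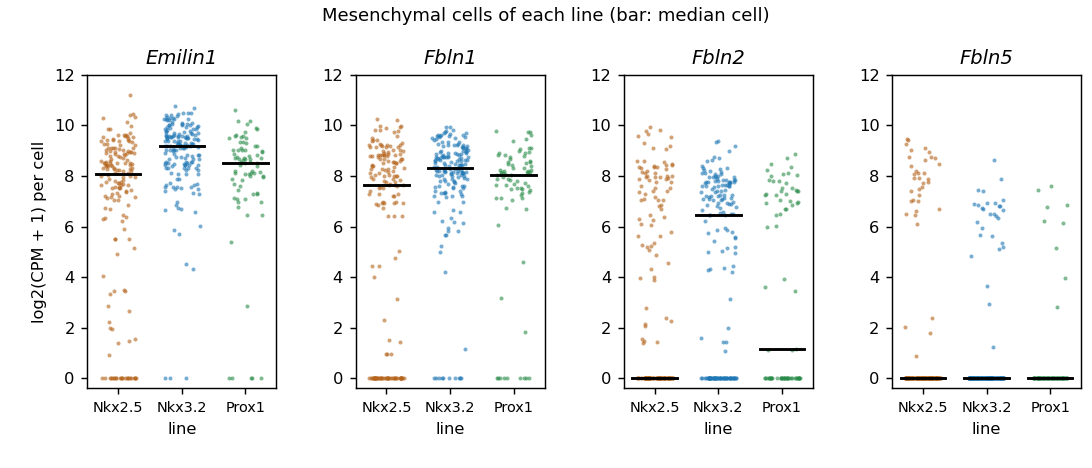
Level of Emilin1, Fbln1, Fbln2 and Fbln5 in each mesenchymal cell as log2(CPM + 1), by line, with the median cell as a bar. Emilin1 fills nearly all cells of the Nkx3.2 line and has its highest median there (583 CPM), whereas Fbln5 is absent from most cells of all 3 lines and reaches its highest values in the Nkx2.5 line (up to 697 CPM).

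Between Prox1 and Nkx3.2 mesenchyme the only gene called was Efemp1, beside 5.77% of 21084 genes, and with a minimum of 20 CPM no gene was called, beside 2.16% of 8441. The Prox1 libraries carry numbers from a separate range and may be another batch. Each line filled its own plates, so plate or batch and line cannot be told apart, here or between the Cre lines. Efemp1 was at 13.1 and 0.341 CPM on plates 8A and 8B from 3 of 77 cells, against none of the Nkx3.2 mesenchymal cells. Fn1 was at 110.8 and 109.7 CPM in the Prox1 line and 70.7 and 78.1 CPM in the Nkx3.2 line, 1.40-fold to 1.57-fold higher over the pairs. Fbn1 was at 87.9 and 84.4 CPM against 117.98 and 166.4 CPM, 1.34-fold to 1.97-fold lower. The makeup of the mesenchyme differed, with 1 and 43 cells in cluster 4 and 5 and 34 in cluster 5, and within clusters 1 to 3 neither direction held throughout: Fn1 was at 9.70, 0.69 and 0.92 of the Nkx3.2 level and Fbn1 at 0.70, 2.15 and 0.54. Emilin1 (488 and 354 CPM) was lower on all 4 pairs of plates, 1.16-fold to 2.01-fold, and in each of clusters 1 to 3, at 0.86, 0.75 and 0.58 of the Nkx3.2 level. Fbln1 was 1.22-fold to 1.33-fold lower and Fbn2 overlapped. Of the related list, 24 genes reached 20 CPM and none was called. The largest ratios were those of the integrin gene Itgav (37.9 and 22.7 CPM) and Hmcn1, which encodes hemicentin-1 (22.6 and 13.6 CPM), and the smallest those of Adamts10, a protease gene tied to microfibrils (66.3 and 156.9 CPM), and Bgn (96.5 and 200.3 CPM).

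Between the Cre lines 25 genes of that list reached 20 CPM, with 1 higher and 1 lower in the Nkx2.5 line, beside 2.77% of 8439 genes. The higher one was Adamts17 (33.1 and 10.95 CPM) and the lower one Bgn (78.9 and 200.3 CPM). Hmcn1 (30.3 and 13.6 CPM) and Tnc, which encodes tenascin-C (18.2 and 44.9 CPM), had the next largest ratios and were not called.

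**Figure D4:**
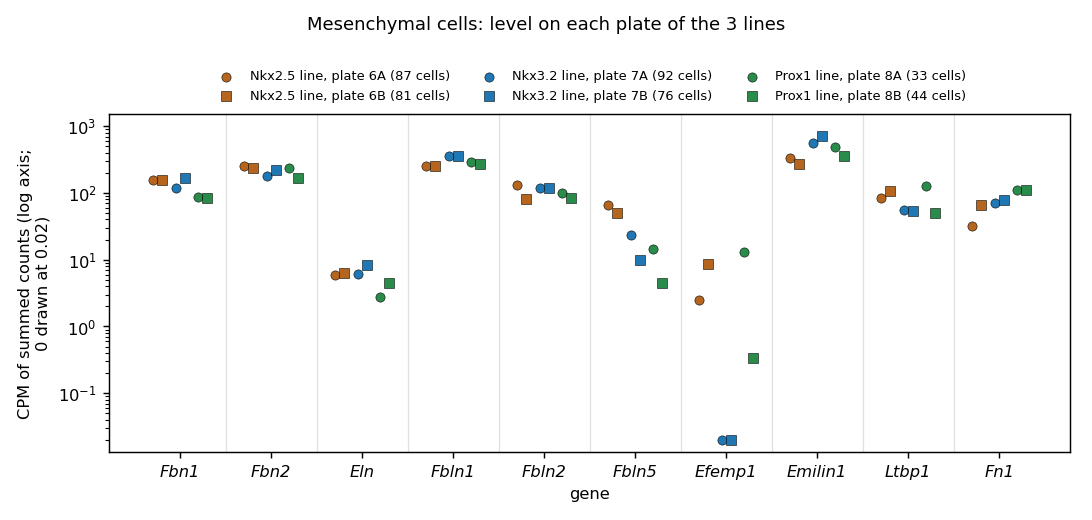
Level of the 10 genes in mesenchymal cells on each plate of the Nkx2.5 (brown), Nkx3.2 (blue) and Prox1 (green) lines, as CPM of summed counts on a log axis with 0 drawn at 0.02. The plates of a line lie close together for Fbn1, Fbn2, Fbln1 and Emilin1, Fbln5 stands highest on both plates of the Nkx2.5 line (65.4 and 50.9 CPM), and Efemp1 spreads widely.

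Among mesenchymal clusters Fbn2 varied little over both plates of a line, and Ltbp1 and Fn1 were uneven. In each line the clusters of at least 10 cells were compared (5 clusters for each Cre line and 4 for Prox1-GFP). Eln, Ltbp1 and Fn1 had their highest cluster at least 2-fold above the lowest in all 3 lines, 3 of 10 genes beside 36.2% of 21157 genes, a share near the background. Which genes were called depended on the clustering: without regressing out the cell cycle, Fn1 lost its call, Eln and Ltbp1 kept theirs, and Fbn1 and Fbln5 gained one. Among clusters 1 to 3 alone, the clusters with at least 10 cells in all lines, only Fn1 was called, and Eln, whose clusters lay between 0.282 and 13.8 CPM, lost its call without plate 7B, with a minimum of 20 CPM and at 3-fold.

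Ltbp1 was lowest in the mural-like cluster 5 (led by Acta2 and Tagln, with Kcnj8), at 3.40 CPM in the Nkx3.2 line, where the rest of the mesenchyme was at 66.8 CPM. The deficit was 19.7-fold over the line and was present on both plates, and the 5 cells of that cluster in the Prox1 line were at 0.974 CPM. It was also low in cluster 4 (led by Robo2 and Kazald1), at 8.32 CPM for Nkx2.5-Cre and 24.7 CPM for Nkx3.2-Cre, and highest in clusters 1 and 2 of the latter (142.2 and 106.5 CPM). In the Prox1 line clusters 1 and 2 were likewise high (159.1 and 112.9 CPM). The Nkx2.5 line differed, with clusters 3 and 6 at 139.4 and 112.5 CPM and clusters 1 and 2 at 77.7 and 105.4 CPM. Its highest cluster was cluster 6 on plate 6A (171.1 CPM) and cluster 2 on 6B (147.3 CPM). Counts of Ltbp1 were held by few cells: the highest 10% of mesenchymal cells had 63.4% to 64.4% of them in the 3 lines.

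Fn1 did not rank the clusters alike across lines. In the Nkx2.5 line it was highest in the proliferating-like cluster 3, which holds Top2a and Pclaf among its leading genes (127.2 CPM), and lowest in cluster 4 (9.97 CPM). Among clusters of at least 10 Nkx3.2 cells, it was highest in cluster 5 (103.96 CPM over both plates, but 63.2 CPM on 7B, where cluster 3 was at 147.9 CPM) and lowest in cluster 1 (23.2 CPM), and in the Prox1 line highest in cluster 1 (226 CPM) and lowest in cluster 2 (50.6 CPM).

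Fbn2 varied little, by 1.48-fold, 1.25-fold and 1.42-fold between its highest and lowest cluster, with the lines in the order Nkx2.5, Nkx3.2 and Prox1. Emilin1 varied by a like amount over both plates, 1.28-fold, 1.57-fold and 1.41-fold, and also ran further apart on single plates of the Nkx2.5 and Prox1 lines. Its clusters ran from 170.8 to 409 CPM on 6A and from 155.9 to 330 CPM on 6B, with cluster 6 highest on 6A and lowest on 6B. They ran from 302 to 667 CPM on 8A and from 294 to 589 CPM on 8B. In the 7 Nkx3.2 cells of cluster 8 Emilin1 was at 294.8 CPM, against 633 CPM in the other mesenchyme. Fbn1 varied more, by 2.81-fold, 3.87-fold and 1.78-fold, and was above the rest of the mesenchyme in cluster 4 of both Cre lines (266 against 141.4 CPM for Nkx2.5-Cre and 170.5 against 124.8 CPM for Nkx3.2-Cre), and in cluster 5 of the latter (196.7 against 122.2 CPM). Fbln1 in the Nkx2.5 line ran from 150 CPM in cluster 6 to 442 CPM in cluster 4. In the other lines it varied by 1.19-fold or less among clusters of at least 10 cells. In the 7 Nkx3.2 cells of cluster 8 Fbln1 was at 80.8 CPM, against 363 CPM in the other mesenchyme. It was at 157.8 CPM in the 5 Prox1 cells of cluster 5, against 286 CPM in the rest. Fbln2 was lowest in cluster 8 (led by Zmat4), at 34.7 CPM in the Prox1 line where the other mesenchyme was at 102.6 CPM, 2.96-fold lower. In the 7 cells of that cluster from the Nkx3.2 line Fbln2 was at 15.3 CPM.

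**Figure D5:**
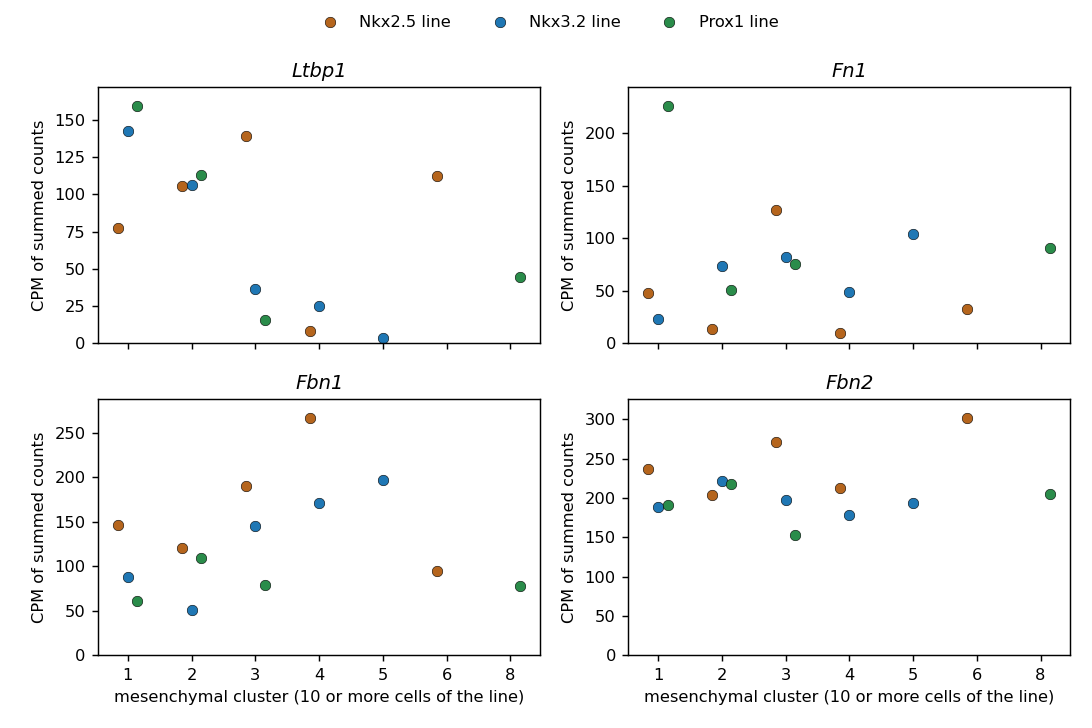
Level of Ltbp1, Fn1, Fbn1 and Fbn2 in each mesenchymal cluster with at least 10 cells of the Nkx2.5 (brown), Nkx3.2 (blue) or Prox1 line (green), as CPM of summed counts. Ltbp1 falls to 3.40 CPM in cluster 5, Fn1 is ordered differently in each line, and Fbn2 stays between 153.5 and 301 CPM.

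Over the 17 groups of line and cluster with at least 10 cells, the log2 levels of Fbn1 and Fbn2 went together (Pearson r = 0.95), as did Emilin1 with Fbn2 (0.88) and with Fbn1 (0.87). These groups share libraries and the contrast of epithelium and mesenchyme, so the values are a description across groups. Fn1 with Fbln5 had the lowest value (-0.51). Over the mesenchymal cells of 1 line, each thinned to 100000 counts, pairs of genes were nearly unrelated, with Spearman values from -0.27 to 0.26 over the 3 lines and medians of 0.05, -0.02 and 0.01. Genes with the profile most like Fbn2 over the 17 groups were Col3a1 (0.99), Col5a2 (0.99) and Mmp2 (0.98), and those most like Fbn1 were Rem1 (0.96), Pcdh18 (0.96) and Nid1 (0.96). Emilin1 was most like Des (0.97), Tgfbi (0.97) and Nkx2-3 (0.96), and Fbln1 was most like Vim (0.96), Nme4 (0.95) and Socs1 (0.95). Ltbp1 was most like Grik1 (0.89), Acss1 (0.88) and Lef1 (0.88), Fbln5 most like Pkdcc (0.87), Arsi (0.84) and Gsn (0.83), and Fbln2 most like Tmem108 (0.92), Dcn (0.83) and Flnc (0.83). For Eln (Gpr137b-ps, Rab21 and Rnf44), Efemp1 (Crispld1, Mkks and Rab29) and Fn1 (Ahcy, Gdpd1 and Wdr81) the values were between 0.70 and 0.80. Genes were ranked among 11589, and by Spearman correlation only 2 of these 30 places kept the same gene.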

How the data were processed

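Smart-seq2 libraries of single GFP+ cells were quantified by the authors with kallisto (GRCm38) after Trim Galore 0.6.5, and the deposited files hold an estimated count per gene and cell, summed to genes with tximport and not normalized. Without molecular identifiers a PCR copy counts as a read, and intervals cover counting error only. Kept were cells of 1000 genes and 100000 counts or more with no more than 30% mitochondrial counts (549 of 576, with 224814 to 1512736 counts per cell). They were clustered with Seurat 5.3.0 (2000 variable genes, 20 principal components, resolution 1.9, cell cycle difference regressed out). Counts were summed by line, plate and state and scaled to CPM. A gene was called when the ratio, each side no lower than 3 counts, was at least 2-fold in the same direction on every pair of plates. Intervals are exact at 95%. No column of the tables was left unused.

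The 10 genes, the list of related genes and the markers were chosen with earlier results of these data known. Also named were the 3 genes of highest Pearson correlation with each of the 10 and, of the related list, the 2 largest ratios each way at 20 CPM or more. The fold rule was tested on simulated data. Alternatives used edgeR 4.0.16 for TMM factors, other filters, clusterings, folds and thinning, and leaving out each plate.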

Additional observations from a re-analysis of the deposited data

Results flagged for a closer look

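In 4 cases the contrast of a cluster with the other mesenchyme of its line went one way on both plates of 1 line and the other way on both plates of another, by at least 1.5-fold over the line at 20 CPM or more. The differences between lines were not tested. Fn1 in cluster 1 was 2.83-fold of the other mesenchyme in the Prox1 line and 0.281-fold in the Nkx3.2 line. Fn1 in the proliferating-like cluster 3 was 4.41-fold in the Nkx2.5 line and 0.633-fold in the Prox1 line. Ltbp1 in cluster 3 was 1.69-fold in the Nkx2.5 line, 0.629-fold in the Nkx3.2 line and 0.160-fold in the Prox1 line. Fbln5 in cluster 2 was 0.589-fold in the Nkx2.5 line and 6.57-fold in the Prox1 line, where cluster 2 was at 20.7 CPM from 4 of 22 cells.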

How the results depend on the processing

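The count of genes higher in mesenchyme than epithelium was 6 under each alternative except a minimum of 20 CPM (5). For the Cre lines the count of 2 became 1 at 20 CPM, at 3-fold and without cells holding other lineages' markers, and 4 at 1.5-fold. For the Prox1 against the Nkx3.2 line the count of 1 became 0 after thinning, at 20 CPM and within clusters 1 to 3 only, an alternative chosen after seeing the data. For endocrine-like cells the count of 7 became 4 after thinning and 3 at 20 CPM. For clusters the count of 3 became 6 at 1.5-fold and 1 within clusters 1 to 3 only. The cause was not tested. Apart from the 20 CPM minimum, no share over all genes is given for these alternatives or for leaving out a plate. These counts are therefore not read against a background. Leaving out each plate in turn gave 2 to 3 genes for the Cre lines, 1 to 3 for the Prox1 against the Nkx3.2 line (2 without 8A, 3 without 8B), 7 to 10 for endocrine-like cells (10 without 8B), 2 to 4 for clusters, 6 to 7 for the mesothelium (no value without 7B, which leaves 3 cells) and 6 higher in mesenchyme than epithelium (without 8A, Efemp1 was also called lower).

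Of the log2 ratios of single genes, 860 of the values under alternatives stayed within the spread of the plates and 120 moved further, none changing sign where a call had been made. Among the 860, 50 each came from the 1.5-fold, 3-fold and 20 CPM settings, which change calls and cannot move a ratio. Leaving out a plate that is not part of a comparison cannot move its ratio either. The 860 therefore include values that had no way to move. TMM factors moved the median gene of a comparison to between -0.10 and 0.01 on the log2 scale, from -0.14 to 0.02. No paired analysis was possible between lines because they share no plate and no label pairs their cells. Within the Prox1 line, ratios of compartments were taken on each plate. After thinning each cell to 100000 counts, the share of mesenchymal cells with a count was 15.01% in place of 31.96% for Eln, 45.5% in place of 58.8% for Ltbp1 and 41.6% in place of 54.7% for Fn1, with smaller shifts or none for the other 7 genes.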

Other observations

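Fbln1 was higher in mesenchymal cells in G2/M than in G1 by phase score in all 3 lines, at 333 and 234 CPM (Nkx2.5 line), 458 and 299 CPM (Nkx3.2 line) and 293 and 242 CPM (Prox1 line). In S phase it was at 249, 368 and 321 CPM, above G2/M in the Prox1 line. Ltbp1 was lower in G2/M than in G1 in all 3 lines, at 57.5 and 80.99 CPM, 28.8 and 68.1 CPM, and 46.1 and 123.5 CPM. In S phase it was at 144.3, 50.5 and 36.9 CPM, which in the Nkx2.5 line was above G1. Phase and cluster went together, with 0 cells in G1 and 37 in G2/M in cluster 3, 79 and 9 in cluster 1 and 27 and 0 in cluster 6, and the part of cluster in these differences was not tested. Both genes were chosen after their values were seen. The mesenchymal cells that carried Efemp1 were spread over clusters 1, 3, 4 and 6 in the Nkx2.5 line (21.05, 184.5, 230.4 and 384 CPM, 1 cell each).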
